A study of Mus musculus with 32 samples.

Results

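The 9 genes described here encode transcription factors of the microglial and wider myeloid lineage, namely Spi1, Irf8, Runx1, Cebpa, Cebpb, Cebpd, Bhlhe40, Bhlhe41 and Mitf. They were taken by name from the 42524 genes of the count table, without a cut on a measured value. The choice was made with earlier results of these data known, so their counts and medians are not independent of these data. All 9 passed the filter on low counts at both ages. RNA was sequenced from the spinal cord of 32 mice, with 4 mice in each of 8 groups set by genotype, treatment and age. G93A mice carried the B6-Tg(SOD1-G93A)1Gur/J transgene, a mutant human SOD1 gene under its own regulatory sequences, on the C57BL/6J background, and WT mice were wild-type littermates. Mice of each genotype were either untreated or given OKN-007, a nitrone drug that acts as an antioxidant, and were labelled with a time of 90 or 155 days. The submitters' design text reads as if this were the length of treatment, while the study's methods give it as the age at sampling, which is how it is used here. The study's mice were mostly female, and the labels give neither the sex nor the dose of the sequenced animals. In the study, the cohorts sampled near disease onset and at 155 days had the higher of its doses, for which only females were used. Its sequencing methods do not name the cohort that was sequenced. The transgene was present in all cells of the G93A mice and was not driven by a promoter specific to neurons or microglia.

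Microglia are the resident macrophages of the central nervous system, and their identity depends on a small set of transcription factors. PU.1, the product of Spi1, is an ETS factor that opens myeloid enhancers, IRF8 binds beside it as a partner, and RUNX1 is needed when the lineage first forms. C/EBP factors cooperate with PU.1 in myeloid gene control and take part in acute inflammatory responses, BHLHE40 and BHLHE41 are E-box repressors, and MITF belongs to the MiT/TFE group of factors that controls lysosomal genes. None of these factors is limited to microglia: C/EBP factors are also made by astrocytes and hepatocytes, and BHLHE40, BHLHE41 and MITF are made by several other cell types. RNA came from bulk pieces of spinal cord, so more cells of a type and more RNA per cell cannot be told apart.

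The total count per mouse lay between 19701722 and 30138257, and levels are given as CPM, a count scaled to the library's size after TMM normalization (edgeR's trimmed mean of M-values) over all 32 mice. The lowest count of any member in any mouse was 11, for Runx1, and the highest was 4471, for Bhlhe41. In the smallest library 0.152 CPM is what 3 counts amount to, which covers the error of counting alone. The labels name no sequencing or library batch, and the human transgene has no row of its own in the mouse count table, so it gave no check of the genotype labels. The mean log2 level of 9 caudal Hox genes, which mark position along the cord, was 2.60 ± 1.11 (SD, n = 4) in untreated G93A mice at 155 days and 4.02 ± 0.36 in untreated WT mice, and in OKN-007-treated mice it was 3.08 ± 0.56 against 4.44 ± 0.10. The labels do not say which level of the cord was taken, and the Hox level was used as a covariate in an alternative fit. It was computed on CPM without TMM factors. Since it differed between genotypes at 155 days, a fit with this covariate can also take away part of the genotype effect.

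Promoter windows of 250 bases before to 50 bases after an annotated start were taken from RefSeq on GRCm38.p6 for 6 of the 9 members, in 10 windows. Spi1, Cebpd and Bhlhe40 were not in that table. Letters of 4 binding motifs were searched on both strands: a PU.1 box (GAGGAAGT), a C/EBP palindrome (TTGCGCAA), an E-box (CACGTG) and a RUNX site (TGTGGTTT). Across all 32851 windows of the same length, 3.20%, 0.183%, 7.15% and 1.78% held them, in that order. Among the members only the E-box was found, in 2 windows. These are shown because CACGTG is the sequence that the BHLHE40, BHLHE41 and MITF families bind, and it stands in capitals. The Bhlhe41 window is chr6:145865371-145865670 on the minus strand, with the E-box at bases -153 to -148 from the start, and the Runx1 window, at the distal of its 2 promoters, is chr16:92826025-92826324 on the minus strand, with the E-box at bases -71 to -66.
Bhlhe41 promoter: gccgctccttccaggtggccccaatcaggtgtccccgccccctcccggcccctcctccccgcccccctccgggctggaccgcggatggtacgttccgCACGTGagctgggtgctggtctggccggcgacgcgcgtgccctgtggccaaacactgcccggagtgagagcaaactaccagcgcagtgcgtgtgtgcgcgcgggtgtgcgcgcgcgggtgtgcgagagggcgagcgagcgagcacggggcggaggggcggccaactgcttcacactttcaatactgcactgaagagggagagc
Runx1 distal promoter: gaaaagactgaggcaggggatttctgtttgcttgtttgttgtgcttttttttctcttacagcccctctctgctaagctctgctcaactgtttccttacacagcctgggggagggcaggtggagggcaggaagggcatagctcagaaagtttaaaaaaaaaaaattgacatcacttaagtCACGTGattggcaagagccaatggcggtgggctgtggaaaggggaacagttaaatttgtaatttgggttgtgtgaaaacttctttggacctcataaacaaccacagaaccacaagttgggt
A match describes the letters only, and no binding was measured in these samples.

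At 155 days all 9 members were higher in untreated G93A than in untreated WT spinal cord, by 12.3-fold for Cebpd down to 1.18-fold for Mitf. The test was edgeR's quasi-likelihood test with Benjamini-Hochberg adjustment over all genes, at an adjusted p under 0.05. Untreated, Mitf was near that threshold, and its call was lost in most alternative fits. Of the 18675 genes tested, 21.3% were higher by the same rule. In OKN-007-treated mice of the same age, all 9 members were again higher in G93A than in WT mice, against 23.3% of all genes. All 4 G93A mice stood above all 4 WT mice for 8 of the 9 members when untreated, the exception being Mitf, and for all 9 under OKN-007. That pattern held for 17.4% of all genes in untreated and 22.6% in OKN-007-treated mice. The median log2 fold change of the members was 2.02 untreated and 2.32 with OKN-007, while the median over all genes was 0.00015 and 0.018. With a log2 fold change of at least 1 required in addition, 6 members passed in each comparison, against 8.09% of all genes untreated and 8.76% with OKN-007, and Bhlhe40, Bhlhe41 and Mitf did not.

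**Figure D1:**
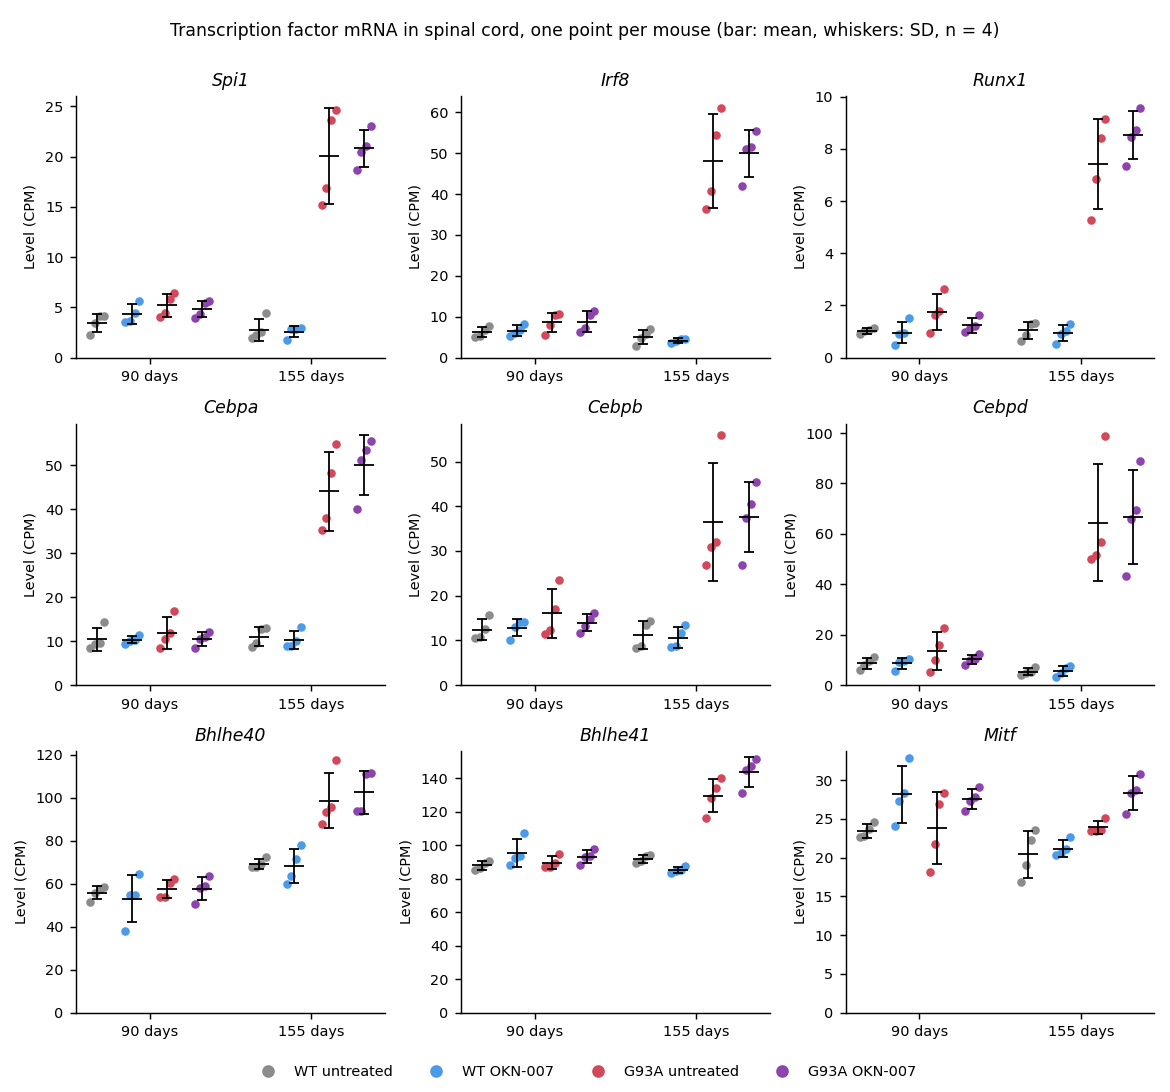
Level of each of the 9 transcription factors in CPM (vertical axes, from 0) for 8 groups of 4 mice at 90 and 155 days, with one point per mouse, a bar at the mean and whiskers of 1 SD. At 155 days the G93A mice stand clear of the WT mice for Spi1, Irf8, Runx1 and the C/EBP genes, while Mitf in untreated G93A mice (23.4 to 25.1 CPM) meets the WT range (16.8 to 23.5 CPM).

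Spi1 (ENSMUSG00000002111, chr2:91082390-91115756, plus strand, as annotated on GRCm38), the gene of PU.1, was at 1.95, 2.20, 2.53 and 4.39 CPM in the 4 untreated WT mice at 155 days. In untreated G93A mice of that age it was at 15.2, 16.9, 23.7 and 24.6 CPM. The lowest G93A mouse was thus above the highest WT mouse by a wide margin, and the fitted log2 fold change was 2.88 (SE 0.22, adjusted p = 5.59e-09). With OKN-007 the WT mice were at 1.73, 2.81, 2.83 and 2.99 CPM and the G93A mice at 18.7, 20.5, 21.03 and 23.1 CPM. The treated groups again did not overlap, and the difference was 8.25-fold (adjusted p = 2.29e-09).

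Irf8 (ENSMUSG00000041515, chr8:120736358-120756694, plus strand), the interferon regulatory factor that partners PU.1, was at 2.92, 4.81, 5.81 and 6.95 CPM in untreated WT mice at 155 days. Untreated G93A mice had 36.3, 40.8, 54.3 and 61.0 CPM. No WT mouse came near the G93A range, and the log2 fold change was 3.26 (SE 0.20, adjusted p = 4.87e-10), or 9.57-fold. In treated mice the levels were 3.44, 4.04, 4.43 and 4.63 CPM in WT and 41.9, 51.1, 51.6 and 55.4 CPM in G93A, a log2 fold change of 3.63 (SE 0.21), the largest of any member under OKN-007. Among the G93A mice Irf8 and Spi1 were lowest in the same animals, replicate 12 untreated and replicate 16 treated, and highest in the same animals, replicate 10 untreated and replicate 13 treated.

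Runx1 (ENSMUSG00000022952, chr16:92601466-92826149, minus strand), a Runt-domain factor of blood and microglial precursors, was the scarcest member. Untreated WT mice at 155 days had 0.651, 0.853, 1.30 and 1.34 CPM, from 15 to 36 counts per mouse, and untreated G93A mice had 5.26, 6.84, 8.41 and 9.15 CPM. The groups were apart even at these low counts, with a log2 fold change of 2.84 (SE 0.24, adjusted p = 2.79e-08). Under OKN-007 the log2 fold change was 3.23 (SE 0.24), with WT mice at 0.523 to 1.27 CPM and G93A mice at 7.33 to 9.57 CPM. The lowest and the highest G93A mice of each treatment were those of Spi1 and Irf8.

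The C/EBP genes rose together, in the order Cebpd, Cebpa, Cebpb by size of change. Cebpd (ENSMUSG00000071637, chr16:15887286-15891031, plus strand), which is known as an early inflammatory response gene, was at 4.09, 4.66, 5.04 and 7.29 CPM in untreated WT mice at 155 days and at 50.1, 51.7, 56.9 and 98.9 CPM in untreated G93A mice. Its log2 fold change of 3.62 (SE 0.28, adjusted p = 7.73e-09) was the largest of any member without treatment. Replicate 11 held the value of 98.9 CPM, and without that mouse the log2 fold change was 3.33. With OKN-007 the G93A mice had 43.4, 65.8, 69.3 and 88.7 CPM against 3.20 to 7.62 CPM in WT, again a log2 fold change of 3.62 (SE 0.28).

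Cebpa (ENSMUSG00000034957, chr7:35119293-35121928, plus strand), a factor of myeloid and hepatocyte differentiation, was at 8.65, 9.56, 12.8 and 12.9 CPM in untreated WT mice and at 35.2, 38.1, 48.1 and 54.8 CPM in untreated G93A mice of 155 days. The groups were apart, with a log2 fold change of 2.02 (SE 0.17, adjusted p = 1.62e-08), and the treated groups differed by 2.32 (SE 0.17). Alb, the liver gene for albumin, was at 142 CPM in untreated G93A replicate 12 and at 86.2 CPM in OKN-007-treated G93A replicate 15. Without those mice in turn, the Cebpa log2 fold change was 2.11 in untreated and 2.28 in treated mice. Cebpb (ENSMUSG00000056501, chr2:167688915-167690418, plus strand), an inflammatory C/EBP factor of macrophages, was at 8.24, 8.72, 13.5 and 14.3 CPM in untreated WT mice and at 26.8, 30.9, 31.99 and 56.0 CPM in untreated G93A mice. Its log2 fold change was 1.71 (SE 0.23, adjusted p = 1.18e-05), the smallest of the C/EBP genes, and it was 1.43 without replicate 11, the mouse that was also highest for Cebpd and Cebpa. In treated mice the log2 fold change was 1.87 (SE 0.23).

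Both BHLHE genes were abundant in WT cord and changed less in fold terms than Spi1, Irf8, Runx1 and the C/EBP genes. In untreated WT mice at 155 days their spread between mice was narrow. Bhlhe40 (ENSMUSG00000030103, chr6:108660629-108666925, plus strand), a repressor linked to circadian, hypoxic and immune control, was at 67.6, 67.8, 69.1 and 72.3 CPM in untreated WT mice at 155 days and at 87.9, 93.4, 95.7 and 117 CPM in untreated G93A mice. The ranges were separate, and the log2 fold change was 0.52 (SE 0.10, adjusted p = 3.38e-04). Bhlhe41 (ENSMUSG00000030256, chr6:145858243-145865558, minus strand), its close relative, was at 89.3, 90.4, 93.4 and 94.1 CPM in WT and at 116, 128, 134 and 140.0 CPM in G93A mice, a log2 fold change of 0.51 (SE 0.07, adjusted p = 6.43e-06). With OKN-007 Bhlhe40 was at 59.7, 63.6, 71.3 and 77.8 CPM in WT and at 93.5, 93.7, 111 and 111 CPM in G93A mice, a log2 fold change of 0.62 (SE 0.10). Bhlhe41 was at 83.4, 84.4, 85.2 and 87.7 CPM in treated WT and at 131, 145, 147 and 152 CPM in treated G93A mice, a log2 fold change of 0.79 (SE 0.07). Its 4 untreated G93A mice stood in the same order as for Spi1, Irf8 and Runx1, with replicate 12 lowest and replicate 10 highest.

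Mitf (ENSMUSG00000035158, chr6:97807052-98021349, plus strand), the MiT/TFE factor of pigment cells, osteoclasts and other macrophages, changed least. Untreated WT mice at 155 days had 16.8, 19.1, 22.2 and 23.5 CPM and untreated G93A mice had 23.4, 23.5, 23.5 and 25.1 CPM. The ranges touched, since a single WT mouse lay within the G93A range, and the log2 fold change of 0.24 (SE 0.09, adjusted p = 0.0491) barely passed. That call was lost with DESeq2 (adjusted p = 0.0645) and with the caudal Hox level as a covariate (log2 fold change 0.12, adjusted p = 0.480). In OKN-007-treated mice the groups were apart, at 20.3, 20.6, 21.1 and 22.7 CPM in WT and 25.6, 28.3, 28.7 and 30.8 CPM in G93A, with a log2 fold change of 0.46 (SE 0.09, adjusted p = 6.34e-04).

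**Figure D2:**
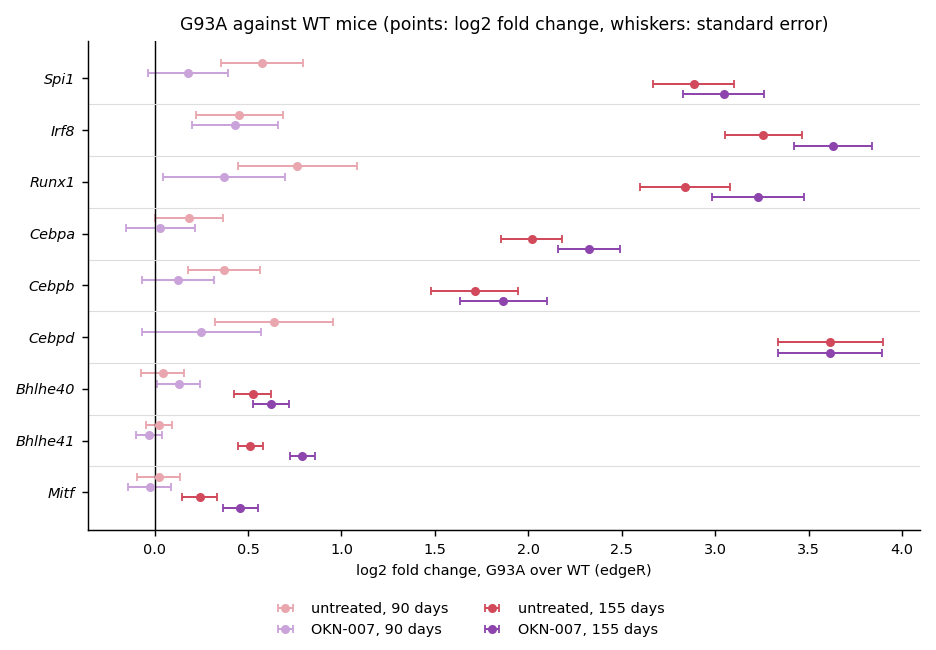
Fitted log2 fold change of G93A over WT mice (horizontal axis, edgeR) for each of the 9 genes at 90 and 155 days, untreated and with OKN-007, with whiskers of 1 standard error. At 155 days the points run from 0.24 for Mitf to 3.63 for Irf8, while at 90 days they lie between -0.03 and 0.76.

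At 90 days none of the 9 members passed in untreated mice, in OKN-007-treated mice or in the mean of both treatments by edgeR's quasi-likelihood test, and DESeq2 and edgeR's likelihood ratio test also called 0. Over all 18899 genes the share called was 0% untreated, 0% with OKN-007 and 0.0265% for the mean of both treatments. At an unadjusted p under 0.05, 2 members were higher in untreated G93A mice (5.96% of all genes in either direction), 0 in treated mice (3.95%) and 3 in the mean of both treatments (6.61%). The 3 were Spi1, with a log2 fold change of 0.38 (SE 0.15, adjusted p = 0.642), Irf8 with 0.44 (SE 0.16, adjusted p = 0.601) and Runx1 with 0.57 (SE 0.23, adjusted p = 0.635).

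Values per mouse at 90 days overlapped between genotypes for all 9 members in each treatment, while the groups were apart in either direction for 2.4% of all genes untreated and 2.84% with OKN-007. Spi1 was at 2.22, 3.40, 4.13 and 4.13 CPM in untreated WT mice and at 4.04, 4.44, 5.84 and 6.45 CPM in untreated G93A mice, a log2 fold change of 0.57 (SE 0.22). Runx1 was at 0.894, 1.0003, 1.04 and 1.14 CPM in WT and at 0.923, 1.62, 1.79 and 2.62 CPM in G93A mice, a log2 fold change of 0.76 (SE 0.32), the largest of any member at this age, which was 0.49 without G93A replicate 11. For each gene the lowest G93A mouse, replicate 9, lay within the WT range and the remaining 3 lay above it. Cebpd was at 5.12, 9.91, 15.9 and 22.8 CPM in untreated G93A mice against 5.88 to 11.04 CPM in WT, with a log2 fold change of 0.64 (SE 0.32), which was 0.24 without replicate 11 and 0.91 without replicate 9. Bhlhe40, Bhlhe41 and Mitf had log2 fold changes between -0.0028 and 0.09 in the mean of both treatments. Of the 14 pan-microglial markers, 0 passed in untreated mice at this age, 11 had an unadjusted p under 0.05 (5.96% of all genes) and their median log2 fold change was 0.50.

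The difference between the genotype effects at 155 and at 90 days was tested directly in a fit of all 32 mice. In untreated mice 8 of the 9 members had a larger G93A effect at 155 days, against 12.9% of 19829 genes, and with OKN-007 all 9 did, against 13% of genes. With a log2 value of at least 1 also required, 6 members passed in each treatment, against 6.04% of genes untreated and 6.3% with OKN-007. Cebpd had the largest difference, with a log2 value of 2.97 (SE 0.45) untreated and 3.33 (SE 0.45) treated, followed by Irf8 with 2.79 (SE 0.32) and 3.17 (SE 0.32). Bhlhe41 differed by 0.47 (SE 0.09) and 0.79 (SE 0.09). Bhlhe40, with 0.47 (SE 0.16, adjusted p = 0.0311) and 0.46 (SE 0.16, adjusted p = 0.0302), was near the threshold, and both calls were lost with the caudal Hox level as a covariate (adjusted p = 0.0695 and 0.0576). Mitf did not pass in untreated mice, with 0.20 (SE 0.15, adjusted p = 0.366). It passed in treated mice, with 0.45 (SE 0.15, adjusted p = 0.0279), but not with the Hox covariate (adjusted p = 0.0761).

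Ages were not compared within a genotype by a test, since age and any step handled separately for each age cannot be told apart. As a description, 1 member was apart between ages in untreated WT mice, against 18.9% of 19829 genes, and 4 were in OKN-007-treated WT mice, against 31.6%. The former was Bhlhe40, at 51.6, 55.5, 57.7 and 58.3 CPM at 90 days, below the untreated WT values at 155 days, whereas its treated WT ranges of 38.0 to 64.5 CPM and 59.7 to 77.8 CPM overlapped. The latter were Spi1, Irf8, Bhlhe41 and Mitf, all lower at 155 than at 90 days in treated WT mice, with Spi1 at 1.73 to 2.99 CPM after 3.56 to 5.66 CPM and Irf8 at 3.44 to 4.63 CPM after 5.20 to 8.32 CPM. In untreated WT mice the ages overlapped for these 4 genes.

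For OKN-007 against untreated mice, none of the 9 members passed in either genotype at either age. This held by edgeR's quasi-likelihood test, by its likelihood ratio test and by DESeq2. By the quasi-likelihood test the adjusted threshold was passed by 0% of all genes in each of these 4 comparisons. Not passing does not show that a member was unchanged. In G93A mice at 155 days the log2 fold change over untreated mice lay between 0.06 for Cebpb and 0.26 for Mitf. For Spi1 and Irf8 it was 0.07 (SE 0.19) and 0.07 (SE 0.18), against genotype effects near 3 log2 units in the same mice. At an unadjusted p under 0.05 there were 2 members, Mitf at 0.26 (SE 0.09) and Bhlhe41 at 0.16 (SE 0.07), against 4.04% of all genes. Ranges were apart for 1 member, against 3.06% of all genes in either direction, namely Mitf, at 23.4 to 25.1 CPM in untreated and 25.6 to 30.8 CPM in treated G93A mice.

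In WT mice at 155 days the log2 fold changes with OKN-007 ran from -0.30 (SE 0.22) for Irf8, which was -0.49 and -0.11 without untreated replicates 4 and 2 in turn, to 0.06 (SE 0.30) for Cebpd, and 0 members had an unadjusted p under 0.05, against 2.94% of all genes. Bhlhe41 was the 1 member with separate ranges, against 1.84% of all genes, at 83.4 to 87.7 CPM in treated and 89.3 to 94.1 CPM in untreated WT mice, and its log2 fold change was -0.12 (SE 0.07). At 90 days the log2 fold changes ran from -0.48 (SE 0.31) for Runx1 to 0.21 (SE 0.11) for Mitf in G93A mice, with 0 members against 5.56% of genes at an unadjusted p under 0.05. Runx1 there was -0.69 and -0.20 without untreated replicates 9 and 11 in turn, and Mitf 0.31 and 0.11 without untreated replicates 9 and 10. In WT mice of that age they ran from -0.09 (SE 0.33) for Runx1 to 0.30 (SE 0.22) for Spi1, which was 0.13 without untreated replicate 2, and the single member was Mitf at 0.26 (SE 0.11), against 4.07% of genes. No member's ranges were apart at 90 days, against 2.88% of all genes in G93A and 2.03% in WT mice.

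**Figure D3:**
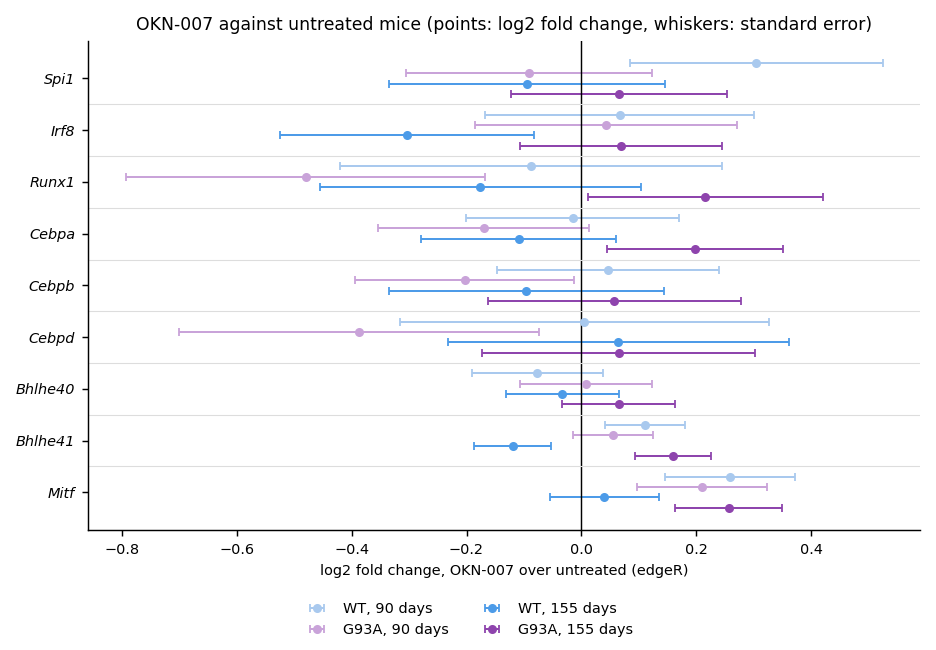
Fitted log2 fold change of OKN-007-treated over untreated mice (horizontal axis, edgeR) for each gene in WT and G93A mice at both ages, with whiskers of 1 standard error. The points lie between -0.48 and 0.30, a narrower span than the G93A effects at 155 days, and Mitf is above 0 in all 4 comparisons.

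The genotype-by-treatment interaction passed for none of the members by edgeR's quasi-likelihood test or DESeq2, at 155 days (0% of all genes) or at 90 days (0%). At an unadjusted p under 0.05 it gave a single member at 155 days, Bhlhe41, with a log2 value of 0.28 (SE 0.09, adjusted p over all genes 0.9998), against 2.34% of genes, and 0 members at 90 days, against 2.81%. The interaction was largest in size for Runx1 at 155 days, with 0.39 (SE 0.35), and for Spi1 at 90 days, with -0.40 (SE 0.31). Without treated WT replicates 7 and 8 in turn the former was 0.20 and 0.59, and without untreated WT replicate 2 the latter was -0.22. The genotype comparisons of untreated and of treated mice used different WT and G93A animals.

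Markers of microglia moved with the members at 155 days. In untreated G93A mice 21.3% of all genes were higher. All 14 pan-microglial markers were higher there, with a median log2 fold change of 3.16 and Cd68 at 4.56 (SE 0.21). Their summed level ranged from 337 to 453 CPM in untreated WT and from 2095 to 4185 CPM in untreated G93A mice, and from 306 to 332 and from 2680 to 3458 CPM in treated mice. All 10 homeostatic markers were also higher, from 0.39 for P2ry12, a purinergic receptor of resting microglia, to 3.86 for Fcrls, and all 10 disease-associated markers were higher, with a median of 4.11. Astrocyte markers were higher for 7 of 8, with Gfap at a log2 fold change of 2.401. Neuron markers were lower for 8 of 8 and motor neuron markers for 6 of 7. The share of all genes that were lower is not given here, so counts of lower markers describe these lists only. Oligodendrocyte and endothelial and pericyte markers were higher for 1 of 9 and 1 of 8. The part of these other cell types in the members' levels was not tested.

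Markers of monocytes, neutrophils and border macrophages were at low summed levels. Of the 10 monocyte and neutrophil markers 3 were tested and 0 passed by edgeR's quasi-likelihood test. At an unadjusted p under 0.05 there was 1, given without the share of all genes at that level. The summed level of the 10 was 0.373 to 3.86 CPM in untreated WT and 1.64 to 2.52 CPM in untreated G93A mice at 155 days. Of these markers, 2 had 3 counts or fewer in every untreated G93A mouse of that age. Ccr2, the monocyte chemokine receptor gene, had a log2 fold change of 1.52 (SE 0.60, adjusted p = 0.0519). Of the 8 border macrophage markers 6 were tested and 2 rose, against 21.3% of all genes. Ms4a7 rose to 3.02 ± 1.18 CPM (SD, n = 4) from a WT mean below the level of 3 counts, and Pf4 by a log2 fold change of 1.39. The summed level of the 8 markers was 4.00 to 4.86 CPM in untreated WT and 6.75 to 11.3 CPM in untreated G93A mice. Of them, 1 was at 3 counts or fewer in every mouse of the latter group. Levels in CPM of different genes do not give the number of cells of each type. The part of border macrophages in the members' rise was not tested.

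Members were also set against the pan-microglial markers of the same mouse at 155 days. As a percentage of the summed CPM of the 14 markers, Spi1 was at 0.718% ± 0.189 (SD, n = 4) in untreated WT and 0.646% ± 0.0652 in untreated G93A mice, and Irf8 at 1.34% ± 0.33 and 1.55% ± 0.18. These ranges overlapped, as did those of Runx1, with a ratio of G93A to WT of 0.843, and Cebpd, with 1.46. Cebpa, Cebpb, Bhlhe40, Bhlhe41 and Mitf were lower per unit of marker in G93A mice without overlap, at ratios of 0.488, 0.388, 0.178, 0.176 and 0.148, as were 95.6% of all genes, so this says little about the members. Under OKN-007 the same 5 genes were lower without overlap, at 0.499, 0.363, 0.154, 0.174 and 0.138, as were 96.9% of all genes, and Irf8 was higher without overlap, at 1.24, as were 0.589% of genes. These values are descriptions without a test, and the denominator sets their zero point. Relative to Csf1r, Aif1 and Itgam alone, markers that rose less than the list as a whole, every log2 ratio was higher, so that Spi1 and Runx1 turned from below to above the WT level, at 0.82 and 0.78 untreated, and Cebpa came close to it, at -0.04, while Bhlhe40, Bhlhe41 and Mitf stayed below, at -1.51, -1.52 and -1.78.

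**Figure D4:**
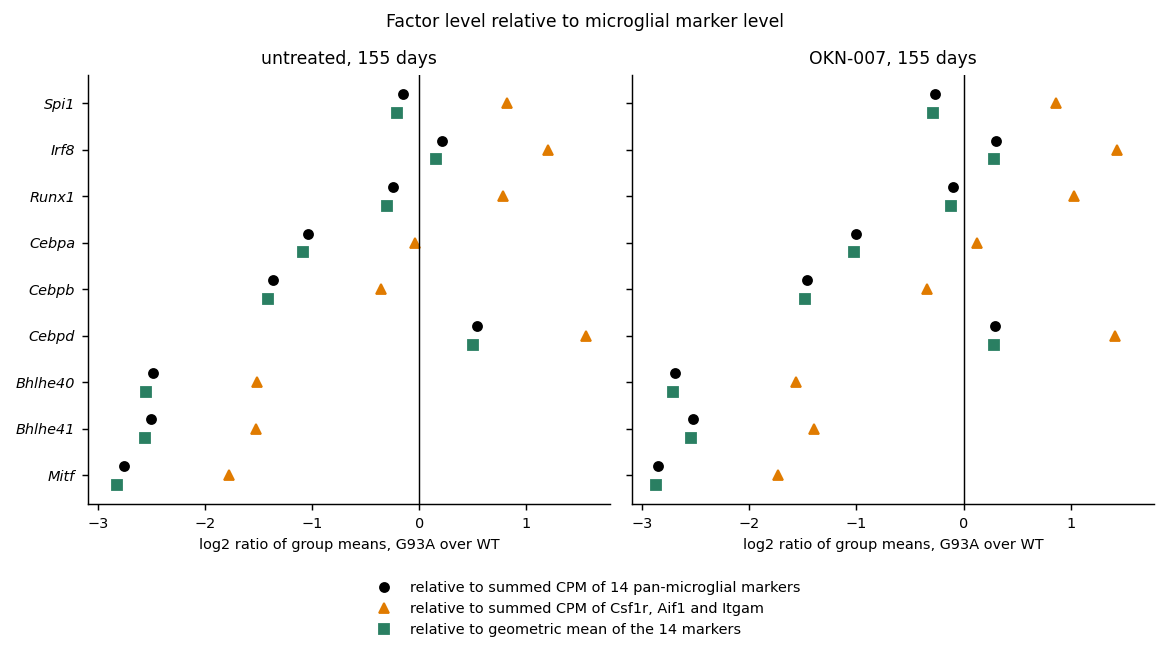
Log2 ratio of group means, G93A over WT at 155 days (horizontal axis), of each factor's level divided by a microglial marker level in the same mouse, untreated (left) and with OKN-007 (right), for 3 choices of denominator. The whole set moves right when only Csf1r, Aif1 and Itgam are used, from -0.15 to 0.82 for Spi1 in untreated mice.

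Per kilobase of annotated exon, the order of the members also differed between genotypes. In untreated WT mice at 155 days Bhlhe40 led with 14.7 ± 0.47 RPKM (SD, n = 4), followed by Bhlhe41 with 13.7 ± 0.34, Cebpb with 7.45 ± 2.11, Cebpa with 4.16 ± 0.83, Mitf with 3.30 ± 0.49, Cebpd with 1.41 ± 0.37, Spi1 with 1.03 ± 0.41, Irf8 with 0.726 ± 0.242 and Runx1 with 0.0862 ± 0.0282. Neighbours whose ranges overlapped were Cebpa and Mitf, Cebpd and Spi1, and Spi1 and Irf8. In untreated G93A mice the order was Cebpb with 24.2 ± 8.81 RPKM, Bhlhe40 with 20.96 ± 2.76, Bhlhe41 with 19.3 ± 1.499, Cebpd with 17.2 ± 6.18, Cebpa with 16.7 ± 3.44, Spi1 with 7.45 ± 1.77, Irf8 with 6.82 ± 1.63, Mitf with 3.86 ± 0.13 and Runx1 with 0.617 ± 0.144. There each of the first 5 genes overlapped its neighbour in rank, as did Spi1 and Irf8. Mitf thus stood above Cebpd, Spi1 and Irf8 in WT mice and below all 3 in G93A mice, with no overlap between Mitf and its neighbour Irf8 in the latter.

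Variation between mice of the same group linked the C/EBP genes to each other. After the mean of each of the 8 groups was taken away, Pearson's r over the 32 mice was 0.86 for Cebpa with Cebpb, 0.77 for Cebpa with Cebpd and 0.77 for Cebpb with Cebpd. Spi1 and Irf8 had an r of 0.59 and Spi1 and Bhlhe41 of 0.54, while Mitf ran against the C/EBP genes, at -0.45, -0.46 and -0.53 for Cebpa, Cebpb and Cebpd. Replicate 11 of the untreated G93A mice was highest for all 3 C/EBP genes at 155 days, and so was replicate 11 at 90 days, with 16.7, 23.4 and 22.8 CPM for Cebpa, Cebpb and Cebpd. The latter mouse was among the 4 with the most Alb, at 25.6 CPM, while the former was not. The mouse with the most Alb, untreated G93A replicate 12 at 155 days (142 CPM), was lowest of its group for Cebpa and Cebpb. Treated G93A replicate 15 of that age (86.2 CPM) was highest of its group for Cebpb and Cebpd. Treated WT replicate 6 at 90 days (46.4 CPM) was neither highest nor lowest for any C/EBP gene. The part of liver RNA in these values was not tested. The mice that share the number 11 are different animals. These correlations are descriptions, since values of a mouse share its library and its piece of cord.

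**Figure D5:**
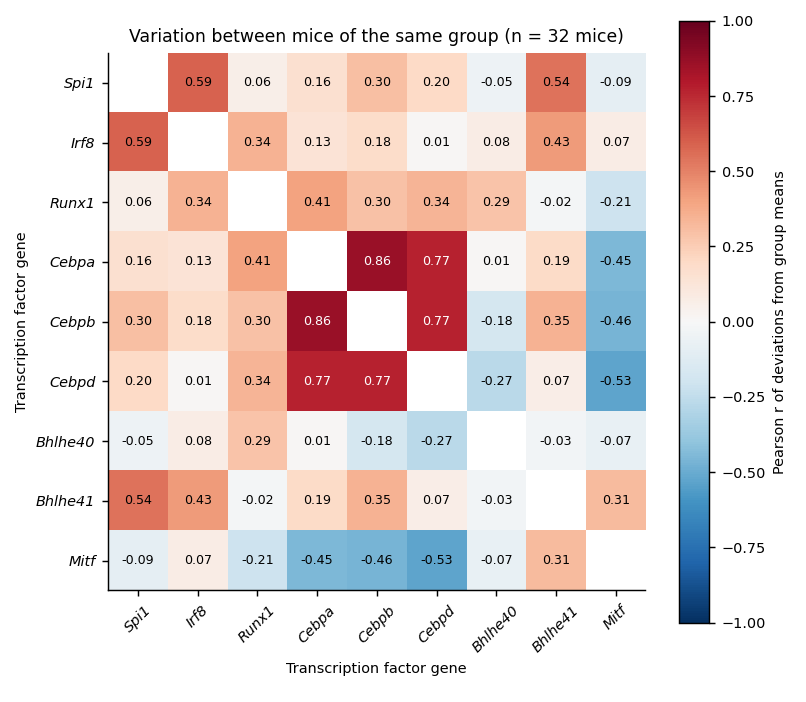
Pearson r of each pair of the 9 genes (both axes) over 32 mice, computed on deviations of log2 levels from the mean of each group of 4. The 3 C/EBP genes form the darkest block, at 0.77 to 0.86, and Mitf is negative against each of them.

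Over all 32 mice, group differences included, Irf8 followed the mean log2 level of the pan-microglial markers most closely, with an r of 0.99. Spi1 had 0.98, Runx1 and Cebpd 0.96, Cebpa and Bhlhe41 0.95, Cebpb 0.94, Bhlhe40 0.77 and Mitf 0.32. With group means taken away, Irf8 had 0.78, Spi1 0.73, Cebpb 0.54, Bhlhe41 0.51, Cebpa 0.48, Cebpd 0.46 and Runx1 0.42. Bhlhe40 then had 0.03 and Mitf -0.22. Among 19829 genes, those with the pattern most like Spi1 were Cd63, Aif1 and Ctsz (r of 0.99 for each), and for Irf8 they were Myo1f, Cyth4 and Tyrobp (0.99 for each). Runx1 was closest to Fmod, Prss23 and Itgax (0.98 for each), Cebpa to Prss23, Ctsb and Prkcd (0.98 for each), and Bhlhe41 to Mdfic, Tlr2 and Igsf6 (0.97 for each). Cebpb and Cebpd shared their closest gene, the metallothionein Mt2 (0.98 and 0.97), with Hspb1, a small heat shock protein gene, next after Mt1 for Cebpb (0.96) and after Arpc1b for Cebpd (0.97). Bhlhe40 was closest to Midn, Scg3 and Slc1a4 (0.96, 0.95 and 0.95), and Mitf, with the weakest likeness, to Cobll1, Mtmr10 and Zeb2 (0.88 for each). All of these correlations are given as a description. Apart from those with group means taken away, they include the differences between the 8 groups, which all of these genes share in part.

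Relatives of the members moved in part. Of 22 tested genes of the same families, 15 rose and 1 fell in untreated G93A mice at 155 days, with a median log2 fold change of 0.42. Of all genes 21.3% were higher in that comparison, and the share that were lower is not given here. Elf4, an ETS factor, rose by 2.72 (SE 0.24), Irf5 by 2.54 (SE 0.16) and Irf7, a driver of interferon genes, by 2.28 (SE 0.22), while Ets2 fell by 0.33 (SE 0.09). Of 25 other microglial and myeloid factors 18 rose, among them Egr2 by 4.48 (SE 0.39), from a WT level of 0.166 ± 0.109 CPM close to that of 3 counts, Atf3, a stress-induced factor also made by injured neurons, by 4.38 (SE 0.31) and Ikzf1 by 2.09 (SE 0.14). Sall1, a factor of microglial identity, rose by 0.45 (SE 0.11).

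Genes known to be controlled by the members were counted by list in the same comparison, in which 21.3% of all genes were higher. The lists were chosen with earlier results of these data known. All 19 PU.1-regulated myeloid genes rose, with a median log2 fold change of 2.90, from Csf2ra at 1.27 to Cybb, the phagocyte oxidase subunit, at 5.67. All 12 tested IRF8-regulated genes rose, with a median of 2.31, and several of them are also in the marker lists. C/EBP-regulated genes rose for 8 of 12, including Socs3 (3.96) and the complement gene C3 (3.01), and the chemokine genes Ccl3 and Ccl2, which were at 12.5 ± 1.25 and 1.23 ± 0.35 CPM (SD, n = 4) in G93A mice and near or below the level of 3 counts in WT. Among 13 cholesterol and lysosome genes related to Bhlhe40 and Bhlhe41, 11 rose, led by Lgals3 (5.53) and Lpl (4.70), and Scd2 fell by 0.19. Of 19 MITF and TFE-regulated genes 11 rose, among them Gpnmb (7.27), Cd68 (4.56) and the proton pump subunit gene Atp6v0d2, at 11.05 ± 5.87 CPM in G93A mice and below the level of 3 counts in WT, and 2 fell, Atp6v1a by 0.41 and Ctsk by 0.48. Of the 9 caudal Hox genes 4 fell, Hoxa9 by 0.81, Hoxd9 by 1.20, Hoxd11 by 2.50 and Hoxc11 by 2.77. Counts of genes that fell stand here without the share of all genes that fell, and so describe the lists only. In OKN-007-treated mice of that age the counts were close, with 19 of 19 PU.1-regulated, 12 of 12 IRF8-regulated and 8 of 12 C/EBP-regulated genes higher in G93A, 11 higher and 1 lower of the Bhlhe-related genes, and 12 higher and 3 lower of the MITF and TFE-regulated genes. Of the same-family factors 16 were higher and 1 lower, and of the other myeloid factors 21 were higher. Of all genes 23.3% were higher in these treated mice. Several genes stand in more than a single list, among them Csf1r, Tyrobp and C1qa, so the lists are not independent of each other or of the markers.

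Several members overlap other genes on the opposite strand in the annotation, and whether reads were counted by strand is not given in the sources used here. Tmem189 overlaps Cebpb and reached 1525 counts, more than the 1365 counts of Cebpb itself. Spidr overlaps Cebpd and reached 288 counts, and 0610040F04Rik overlaps Bhlhe40 and reached 101 counts. Antisense partners of Runx1, Cebpa and Bhlhe41 reached 13, 30 and 34 counts. How reads in the shared exons were assigned is not known, and the effect on the counts of these members was not tested.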

How the data were processed

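Spinal cord RNA of 32 mice was measured by RNA-seq from a TruSeq Stranded mRNA library. According to the study's methods, the authors trimmed reads with Trimmomatic, aligned them to GRCm38 with STAR and counted them with HTSeq on GENCODE M10, whereas the submitters' processing notes list GRCm39, STAR and featureCounts; which of them made this table was not settled, so GRCm38 positions describe the annotated gene only. The authors deposited raw counts per gene without normalization, 42524 genes, of which 41203 (96.9%) were given a symbol through GENCODE M21. Libraries held 19701722 to 30138257 counts, and no column went unmapped.

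Tests used edgeR 4.0.16, which relies on limma 3.58.1, under R 4.3.3 (filterByExpr, TMM, estimateDisp, glmQLFit and glmQLFTest at default settings, no covariate). The 16 mice of an age were fitted as 4 groups, and all 32 as 8 groups for genotype by age. Tests were two-sided, p-values were adjusted over all genes tested, and standard errors were the absolute log2 fold change divided by the square root of F. Each sample is labelled as a separate replicate, and p-values measure the spread between these samples. The procedure was also run on simulated counts, in which far fewer genes changed than were called here at 155 days. That run does not show how the procedure behaves on these data. Python 3.11.15 was used for descriptions.

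Members and gene lists were chosen with earlier results of these data known. All 9 members are named in each comparison, with up to 3 genes of largest and up to 2 of smallest log2 fold change per list among those past the threshold in untreated mice at 155 days, and the 3 genes most correlated with each member. As alternatives, DESeq2 1.42.0, RLE factors, the likelihood ratio test of edgeR, a filter of 10 or more counts in each mouse or none, other sets of mice in the fit, the caudal Hox level as a covariate, other thresholds, a replicate block and leaving out each mouse were tried. The labels give the earlier age as 90 days, and the paper gives a slightly later one.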

Additional observations from a re-analysis of the deposited data

Results flagged for a closer look

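Of 72 groups of 4 mice, 3 held a mouse far from the others, and chance alone gives about 1 in 20 groups, or 3.6. Spi1 was at 1.73 CPM in replicate 8 of the OKN-007-treated WT mice at 155 days, where the next mouse had 2.81 CPM. Cebpd was at 98.9 CPM in replicate 11 of the untreated G93A mice at 155 days, where the next had 56.9 CPM. Mitf was at 25.1 CPM in replicate 10 of the same group, where the next had 23.5 CPM. Without these mice the log2 fold changes of G93A over WT mice were 2.89 for Spi1 with OKN-007, 3.33 for Cebpd untreated and 0.23 for Mitf untreated (adjusted p = 0.0925 by edgeR, no longer past the threshold).

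The G93A effect differed between 155 and 90 days by edgeR's test of that difference for 8 members in untreated mice. The log2 values were 2.30 for Spi1, 2.79 for Irf8, 2.07 for Runx1, 1.83 for Cebpa, 1.33 for Cebpb, 2.97 for Cebpd, 0.47 for Bhlhe40 and 0.47 for Bhlhe41. With OKN-007 it differed for all 9, with 2.83 for Spi1, 3.17 for Irf8, 2.83 for Runx1, 2.26 for Cebpa, 1.71 for Cebpb, 3.33 for Cebpd, 0.46 for Bhlhe40, 0.79 for Bhlhe41 and 0.45 for Mitf. The cause of these differences was not tested.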

How the results depend on the processing

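Over the alternatives to the analysis, DESeq2 included, the number of members called in the 155-day comparison of G93A with WT mice was 8 to 9 untreated and 9 with OKN-007, that for the difference between ages was 7 to 8 untreated and 7 to 9 with OKN-007, and in each of the comparisons at 90 days, of OKN-007 and of genotype by treatment it was 0. Adding a log2 fold change of at least 1 left 6 members in the first 4. The Mitf call in untreated mice at 155 days was lost under edgeR's likelihood ratio test (adjusted p = 0.0512), RLE factors (0.0620), no filter (0.104), the Hox covariate (0.480), DESeq2 (0.0645), all mice in a single fit (0.0989) and only the compared groups (0.122), and in 12 of 16 omissions of a mouse, kept without WT untreated replicates 1 and 3 and G93A OKN-007 replicates 13 and 15 (log2 fold change 0.17 to 0.32, adjusted p 0.0165 to 0.127). For genotype by age, Bhlhe40 untreated was lost without the filter (0.0532), with the Hox covariate (0.0695), and without WT replicate 3 or G93A replicate 11 of 90 days or WT replicate 3 or G93A replicate 10 of 155 days (log2 value 0.36 to 0.53). Bhlhe40 with OKN-007 was lost without the filter (0.0856), with the covariate (0.0576), with only the compared groups (0.0532), and without WT replicates 6, 7 or 8 or G93A replicate 14 of 90 days or WT replicates 5 or 7 or G93A replicates 13 or 15 of 155 days (adjusted p 0.0501 to 0.0939). Mitf with OKN-007 was lost without the filter (0.101), with the covariate (0.0761), and without WT replicate 5 or G93A replicate 16 of 90 days or WT replicates 6 or 8 or G93A replicate 13 of 155 days (0.0515 to 0.0916). The cause was not tested.

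Not every member was followed over the alternatives in every comparison. Among the values followed, direction turned only for small ones that did not pass in any fit, and for levels relative to markers. In the 90-day mean of both treatments Bhlhe41 became 0.000716 with at least 10 counts in every mouse and 0.00338 with the Hox covariate. With that covariate the OKN-007 effect at 155 days became -0.071 for Cebpb and -0.067 for Cebpd in G93A mice and -0.046 for Cebpd in WT mice. Leaving out each mouse moved the 90-day mean from -0.019 to 0.030 for Bhlhe41, -0.051 to 0.050 for Mitf and -0.0044 to 0.19 for Cebpa, the OKN-007 effect in G93A mice at 155 days from -0.064 to 0.34 for Cebpb, -0.11 to 0.35 for Cebpd, -0.043 to 0.20 for Irf8 and -0.046 to 0.17 for Spi1, that in WT mice at 155 days from -0.12 to 0.29 for Cebpd, and that in WT mice at 90 days from -0.40 to 0.12 for Runx1. Relative to Csf1r, Aif1 and Itgam, the log2 ratios of G93A to WT at 155 days were, untreated and with OKN-007, 0.82 and 0.86 for Spi1, 1.20 and 1.44 for Irf8, 0.78 and 1.03 for Runx1, -0.042 and 0.13 for Cebpa, -0.36 and -0.34 for Cebpb, 1.56 and 1.41 for Cebpd, -1.51 and -1.57 for Bhlhe40, -1.52 and -1.40 for Bhlhe41 and -1.78 and -1.73 for Mitf. Replicate numbers were not used as a pairing, since of 16 pairs of same-numbered samples 3 had deviations correlated above 0.1 (r from -0.22 to 0.26). With a replicate block the difference between ages was called for 8 members untreated and 9 with OKN-007, and for 4197 against 4211 and 4624 against 4557 of all genes. Runx1 had the lowest counts of the members, down to 11 in a mouse.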
